A study of Mus musculus with 8 samples.

Results

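The anoctamins (TMEM16 proteins) were followed in the PFC of mice that overexpressed Rnf146. The members were the rows of the deposited expression table whose symbol was *Ano1*, *Ano2*, *Ano3*, *Ano4*, *Ano5*, *Ano6*, *Ano8* or *Ano10*, and all 8 were found among the 15039 genes. *Ano7* and *Ano9*, the other family symbols, had no value in the analysed table. The family was chosen by the differences of *Ano1* and *Ano2*, which had been seen to be higher in the RNF146 libraries of this same comparison, so the differences between groups given below describe the members and are not independent evidence.

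RNA was sequenced from the PFC of 4 mice that had received AAV2/1-hsyn-RNF146-eGFP and 4 that had received AAV2/1-hsyn-eGFP. All were wild-type C57BL/6NCrljOri males, and the virus had been injected on both sides 4 weeks before dissection. The labels give an age of 6 weeks. The paper took mice of this age for the overexpression experiments, so the 6 weeks are read as the age at injection. The hsyn promoter drives the transgene in neurons, whereas the RNA came from the whole dissected tissue, so fewer cells of a type and less RNA per cell cannot be told apart. The labels give 1 library per replicate number and group and do not say what the same-numbered mice shared.

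Most anoctamins are membrane proteins gated by intracellular calcium. *Ano1* and *Ano2* encode calcium-activated chloride channels, through which a calcium signal in a cell is turned into a chloride current. *Ano6* encodes a phospholipid scramblase, which exposes phosphatidylserine on the cell surface, and other members have been linked to scrambling, to ion conductance or to contacts between the endoplasmic reticulum and the plasma membrane. In the brain, calcium-activated chloride channels are known for shaping spikes and synaptic responses of particular neuron types.

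The coding sequence shows how closely the members are related. The stretch below is the ungapped 60-base window, inside a single exon in every member, that had the most codons with the same meaning in all 8 members of a protein-guided alignment. It codes for part of the helix that holds acidic residues of the calcium-binding site in *Ano1*. Capitals mark the 23 bases that were identical in all 8 members, and each sequence is read 5′ to 3′ on the coding strand.
Ano1: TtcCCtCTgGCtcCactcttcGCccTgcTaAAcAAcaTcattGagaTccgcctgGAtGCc
Ano2: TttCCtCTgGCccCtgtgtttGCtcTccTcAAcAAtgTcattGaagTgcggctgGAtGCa
Ano3: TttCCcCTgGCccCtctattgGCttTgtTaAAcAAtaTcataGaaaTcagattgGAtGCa
Ano4: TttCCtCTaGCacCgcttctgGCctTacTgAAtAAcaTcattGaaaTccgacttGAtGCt
Ano5: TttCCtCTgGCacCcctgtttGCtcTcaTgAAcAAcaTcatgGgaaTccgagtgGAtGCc
Ano6: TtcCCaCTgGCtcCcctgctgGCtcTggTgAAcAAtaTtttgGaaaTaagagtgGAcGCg
Ano8: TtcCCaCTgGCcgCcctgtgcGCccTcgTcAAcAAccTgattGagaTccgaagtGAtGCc
Ano10: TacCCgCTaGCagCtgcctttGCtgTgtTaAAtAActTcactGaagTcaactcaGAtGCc
Of the 20 codons, 8 specified the same amino acid in all 8 members. The window lies in coding exon sequence of GRCm39 at chr7:144157233-144157292 (minus strand), exon 21 of 25, for *Ano1* and at chr6:125990161-125990220 (plus strand), exon 22 of 26, for *Ano2*. Counted from the first base of the window, codon 15 of *Ano5* differed from that of *Ano1* by A44G and G45A, whereas those of *Ano2*, *Ano3*, *Ano4*, *Ano6* and *Ano10* carried G45A alone. The *Ano2* window differed from that of *Ano1* at 16 bases and the *Ano10* window at 22 bases.

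Over whole translated coding sequences, *Ano1* and *Ano2* were 60.2% identical across 940 aligned residues. Only *Ano3* and *Ano4*, with 64.8% across 922 residues, were closer among the 28 pairs of members. *Ano5* and *Ano6* shared 50.1%, and *Ano8* and *Ano10* shared 38.1%. *Ano1* was 27.8% identical to *Ano10*, the lowest of all pairs. No stretch of 31 bases was shared between the transcripts of *Ano1* and *Ano2*. The only such stretches in the family were 2 shared by *Ano6* and *Ano10*, so the annotated transcripts of the other pairs can be told apart at this length.

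The overexpressed gene was checked first. The deposited values are on a log2 scale, and none lies below 7.86. How changes of weakly expressed genes are scaled cannot be read from them, since the transformation is not given in the sources used here. *Rnf146*, the E3 ubiquitin ligase encoded by the vector, lay between 10.3 and 10.5 in the eGFP libraries and between 13.01 and 13.17 in the RNF146 libraries. Cortical identity was checked with *Slc17a7*, the vesicular glutamate transporter of cortical excitatory neurons, whose mean value of 14.8 over both groups was at percentile 99.7 of all genes. *Slc17a7* was itself called lower in the RNF146 libraries, by a mean difference of -0.30 ± 0.14 (SD, n = 4 pairs). The values had been centred within each same-numbered pair of libraries before deposition, so that each gene carries a mean and 4 pair differences. The SD of the 4 libraries is therefore the same in both groups by construction. For the same reason, the groups do not overlap whenever the 4 pair differences of a gene have the same sign. Such a separation adds nothing to the 4 signs.

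*Ano1* lies at chr7:144142278-144305711 on the minus strand. Its values were 8.87, 8.76, 9.09 and 8.83 in eGFP libraries 1 to 4 and 9.53, 9.64, 9.30 and 9.57 in RNF146 libraries 1 to 4. Every RNF146 library was above every eGFP library, and the values of pair 3 were the nearest to each other. The difference between the libraries of a pair was 0.66, 0.89, 0.21 and 0.73, averaging 0.62 ± 0.29 (SD, n = 4 pairs), or 1.54-fold on the deposited scale. The spread of these differences was wider than that of 96.0% of the 500 genes nearest in mean value.

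*Ano2*, the channel best known from olfactory cilia and photoreceptor terminals, lies at chr6:125667059-126017116 on the plus strand. Its values were 8.57, 8.68, 8.84 and 8.72 in the eGFP libraries and 9.41, 9.31, 9.15 and 9.27 in the RNF146 libraries. The groups did not overlap here either, and pair 3 again had the smallest difference. The differences were 0.84, 0.63, 0.32 and 0.55, averaging 0.58 ± 0.22 (SD, n = 4 pairs), or 1.5-fold. By mean difference, *Ano1* ranked 21st and *Ano2* 26th among the increases of all 15039 genes.

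*Ano3*, a gene of inherited dystonia that is prominent in the striatum, was the most variable member. It lies at chr2:110485546-110781268 on the minus strand. Its values were 11.69, 11.26, 11.23 and 11.52 in the eGFP libraries and 11.33, 11.76, 11.80 and 11.50 in the RNF146 libraries. The groups overlapped widely: the RNF146 library was lower in pair 1, higher in pairs 2 and 3 and nearly equal in pair 4. The differences were -0.36, 0.50, 0.57 and -0.01, averaging 0.17 ± 0.44 (SD, n = 4 pairs), so that the spread was larger than the mean. The spread was also wider than in 99.4% of the 500 genes of similar level.

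*Ano4*, the closest relative of *Ano3* by sequence, lies at chr10:88784789-89181063. Its values were 9.79, 9.77, 9.80 and 9.85 in the eGFP libraries and 9.92, 9.93, 9.91 and 9.85 in the RNF146 libraries. The RNF146 library was higher in 3 of 4 pairs, with pair 4 level, and the groups overlapped only through the eGFP and RNF146 libraries of pair 4. The mean difference was 0.10 ± 0.07 (SD, n = 4 pairs).

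*Ano6*, the scramblase whose loss causes the bleeding disorder Scott syndrome, lies at chr15:95688613-95873353. Its eGFP values of 10.09, 10.11, 10.20 and 10.14 overlapped with its RNF146 values of 10.20, 10.19, 10.10 and 10.16. The pairs spread more widely than their mean difference, 0.03 ± 0.09 (SD, n = 4 pairs).

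*Ano5*, a gene of limb-girdle muscular dystrophy, lies at chr7:51160595-51249083, on the same chromosome as *Ano1*. Its values were 8.41, 8.33, 8.37 and 8.39 against 8.40, 8.48, 8.44 and 8.42, and the mean difference was 0.06 ± 0.07 (SD, n = 4 pairs). These values were at percentile 6.36 of all genes.

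*Ano8*, which tethers the endoplasmic reticulum to the plasma membrane, was the only member with a mean difference below 0. It lies at chr8:71927360-71938752 on the minus strand. Its values were 10.93, 10.91, 10.85 and 10.88 in the eGFP libraries and 10.79, 10.81, 10.87 and 10.84 in the RNF146 libraries, and the differences averaged -0.06 ± 0.07 (SD, n = 4 pairs). The RNF146 library was higher in pair 3 alone. *Dda1*, whose transcripts overlap *Ano8* from the other strand, had a mean difference of -0.11 ± 0.07 (SD, n = 4 pairs). The kit preserved strand, but the strand setting of the quantification was not given in the sources used here.

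*Ano10*, a gene of recessive cerebellar ataxia, lies at chr9:122004940-122124498. It varied least, with values of 9.72, 9.73, 9.77 and 9.76 against 9.81, 9.80, 9.76 and 9.77. Its mean difference was 0.04 ± 0.05 (SD, n = 4 pairs), and its pair differences ran from -0.01 to 0.09.

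**Figure D1:**
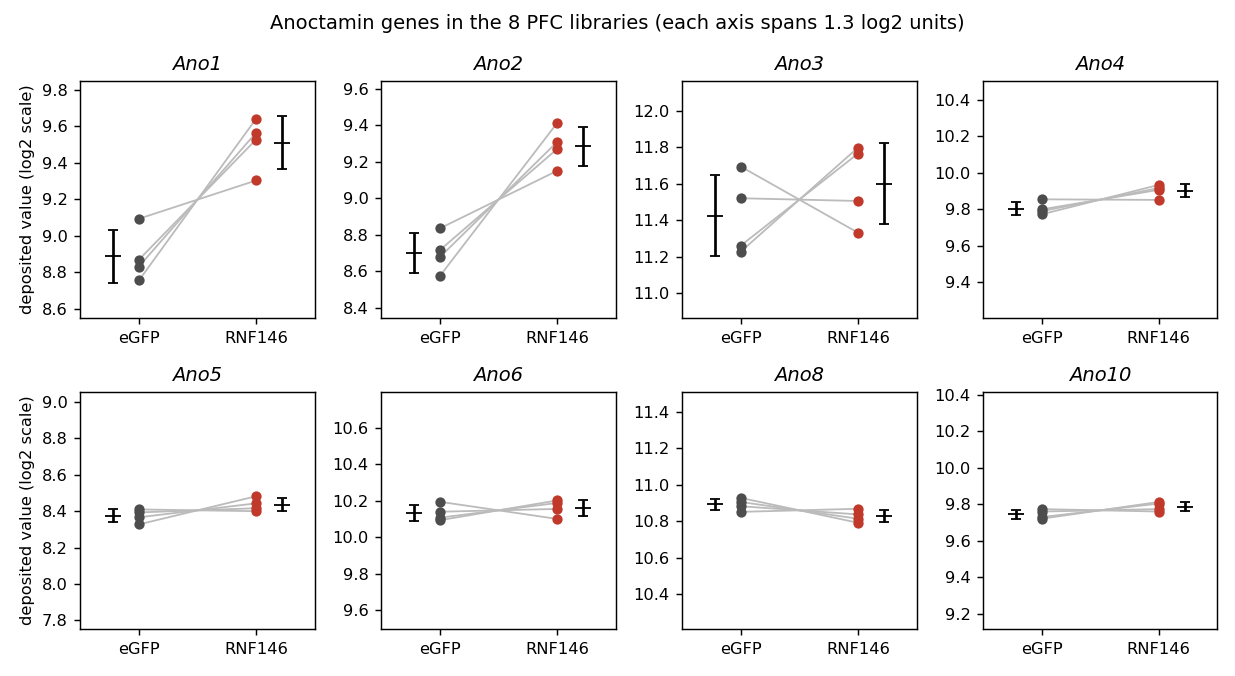
Deposited value (log2 scale) of each anoctamin gene in the 4 eGFP and the 4 RNF146 libraries, with grey lines joining libraries of the same number and black bars for the mean ± SD of 4 libraries. All panels span the same number of log2 units, and the groups separate for *Ano1* and *Ano2*, while *Ano3* has crossing lines.

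All genes of the table were fitted with limma, in which the number shared by 2 libraries entered as the block, and a gene with an adjusted p up to 0.1 was called. Of the 8 members, 2 were called, *Ano1* and *Ano2*, both higher in the RNF146 libraries. Over the whole table, 1.25% of genes were called, made up of 0.818% higher and 0.432% lower. This split depended on the fit, with 1655 higher and 1571 lower without the block, 39 and 3 without pair 2, and 14 and 0 without pair 4. The groups did not overlap, which means 4 pair differences of the same sign, for the same 2 members, against 20.6% of all genes. This share was made up of 10.4% with the RNF146 group higher and 10.2% with it lower. Since these 2 genes led to the choice of the family, nothing is read from the counts. The other 6 members had adjusted p-values between 0.462 for *Ano4* and 0.881 for *Ano6* in the same limma fit, and their mean differences ran from -0.06 to 0.17, with a median of 0.05. The median over all genes was 0.0009.

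The call of *Ano1* and of *Ano2* depended on single pairs. It was lost when pair 2 or pair 4 was left out, with differences of 0.53 and 0.58 for *Ano1* and of 0.57 and 0.59 for *Ano2*, and limma's adjusted p then lay between 0.102 and 0.241. limma's moderated standard error of *Ano1* was 0.0972, against 0.145 from its own 4 pairs, and that of *Ano2* was 0.0773, against 0.108. The p-values of both genes therefore rest on a smaller error than their own pairs gave.

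**Figure D2:**
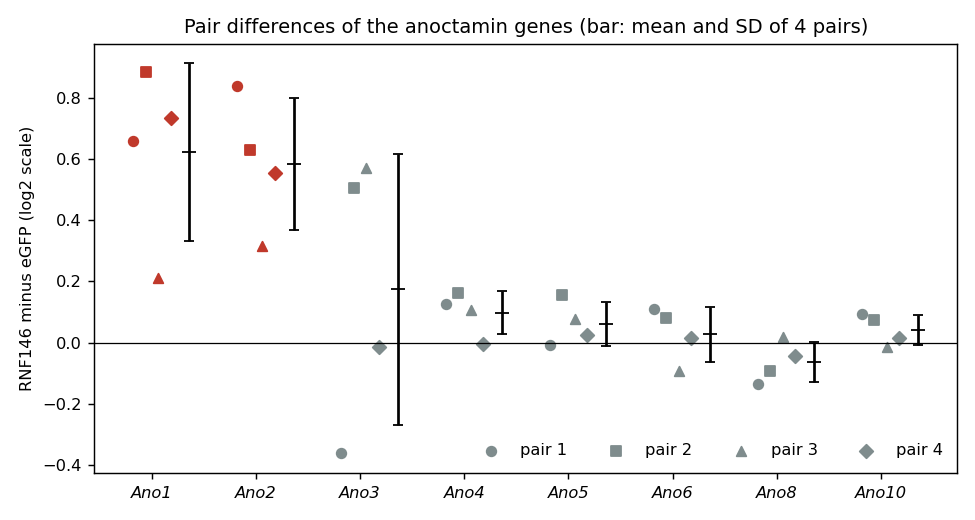
RNF146 minus eGFP value (log2 scale) of each anoctamin gene in pairs 1 to 4, with the symbol giving the pair, red marking called genes and black bars the mean ± SD of the 4 pairs. *Ano1* and *Ano2* lie above 0 in all pairs, with pair 3 lowest, and *Ano3* runs from -0.36 to 0.57.

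The level of each member was compared per length, as the deposited value less the log2 of its longest annotated transcript in kb. On this per-length log2 scale, the mean level over the 4 eGFP libraries was 8.68 for *Ano3*, 8.51 for *Ano8*, 7.66 for *Ano10*, 7.59 for *Ano6*, 7.55 for *Ano4*, 6.64 for *Ano1*, 6.61 for *Ano2* and 5.28 for *Ano5*. The ranges of the eGFP libraries overlapped between the neighbours *Ano3* and *Ano8*, among *Ano10*, *Ano6* and *Ano4* in sequence, and between *Ano1* and *Ano2*. They did not overlap between *Ano8* and *Ano10*, *Ano4* and *Ano1*, or *Ano2* and *Ano5*. Differences in level between members were not tested, and the ranges do not include the choice of transcript length. The centring has removed the variation between pairs from these ranges, which are therefore too narrow. None of the deposited values lies below 7.86, and how values near it relate to abundance is not given. For weakly expressed genes such as *Ano1*, *Ano2* and *Ano5*, the order can therefore reflect transcript length as well as level.

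Both called genes were among the weakly expressed members. Over all 8 libraries, the per-length level of *Ano1* was at percentile 19.7 and that of *Ano2* at percentile 18.1 of the 14590 genes with a length, against 73.9 for *Ano3*. In the RNF146 libraries the per-length level was 7.27 for *Ano1* and 7.19 for *Ano2*, still below the 7.64 of *Ano4* in these libraries. With the median transcript length in place of the longest, the percentile was 9.06 for *Ano1* and 13.2 for *Ano2*, and *Ano2* came before *Ano1* and *Ano4* before *Ano6*.

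**Figure D3:**
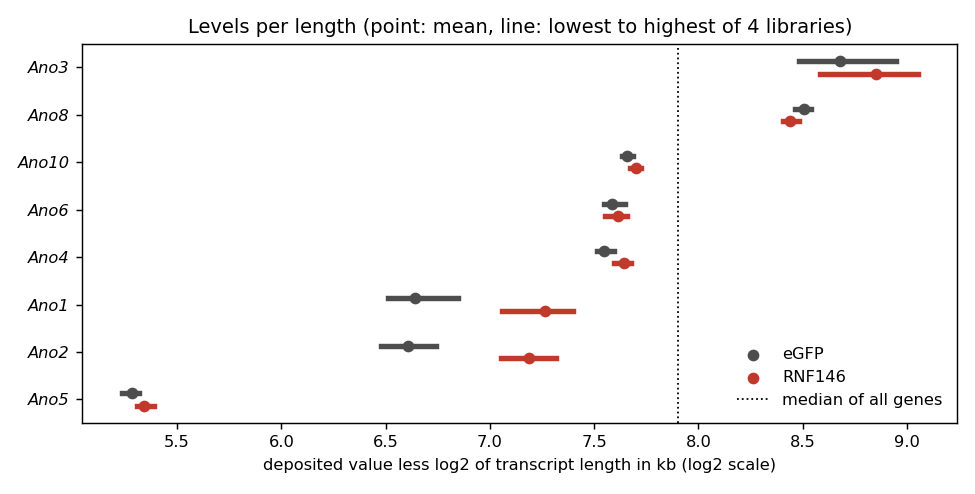
Deposited value less log2 of transcript length in kb (log2 scale) for each anoctamin gene, ordered by the mean over 8 libraries; points are means and lines run from the lowest to the highest of 4 libraries in the eGFP (grey) and RNF146 (red) groups. The 2 groups separate for *Ano1* and *Ano2*, and the dotted line is the median of all genes.

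Genes with related tasks were examined as 6 lists, of whose 104 genes 75 were in the table. Of these 75, 3 were called (4.00%, against 1.25% of the whole table), all 3 higher in the RNF146 libraries, and the median difference was -0.0021, near the 0.0009 of all genes. The largest differences among 20 other chloride channel genes were those of 2 chloride intracellular channel genes, and both were called. *Clic6* had differences of 0.52, 0.50, 0.53 and 0.61, averaging 0.54 ± 0.05 (SD, n = 4 pairs), and limma gave it an adjusted p of 0.0044. *Clic4* had 0.31, 0.45, 0.68 and 0.51, averaging 0.49 ± 0.15 (SD, n = 4 pairs), for which limma's adjusted p was 0.018. The median of this list was 0.0084.

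Among the 6 TMC and TMEM63 genes, which share the fold of the anoctamins, *Tmem63a* was called. This gene of a mechanically gated cation channel had differences of 0.22, 0.36, 0.58 and 0.23, averaging 0.35 ± 0.17 (SD, n = 4 pairs), for which limma's adjusted p was 0.074. *Tmc6* followed with 0.05 ± 0.11, and the list had a median of -0.0081.

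None of the 7 cation-chloride cotransporters in the table was called with limma, and 1 had an unadjusted p under 0.05, as did 12.4% of all genes. *Slc12a2*, which loads cells with chloride and so bears on the direction of a chloride current, had differences of 0.07, 0.35, 0.51 and 0.28, averaging 0.30 ± 0.18 (SD, n = 4 pairs), for which limma's adjusted p was 0.123. *Slc12a8* had 0.07 ± 0.07. The median of the 7 genes was 0.05.

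No gene was called with limma among 12 other lipid scramblases, 13 phospholipid flippases and 17 genes of receptor-driven calcium release, of which 1, 3 and 2 had an unadjusted p under 0.05, against 12.4% of all genes. The largest mean differences in absolute size were 0.11 for *Plscr1* and 0.10 for *Xk* among scramblases, and -0.22 for the flippase *Atp11b* and 0.16 for *Atp10b*. *Plcb4* and *Plcb2*, phospholipases that start calcium release, had 0.18 and -0.13. The list medians were 0.02, -0.02 and -0.05.

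**Figure D4:**
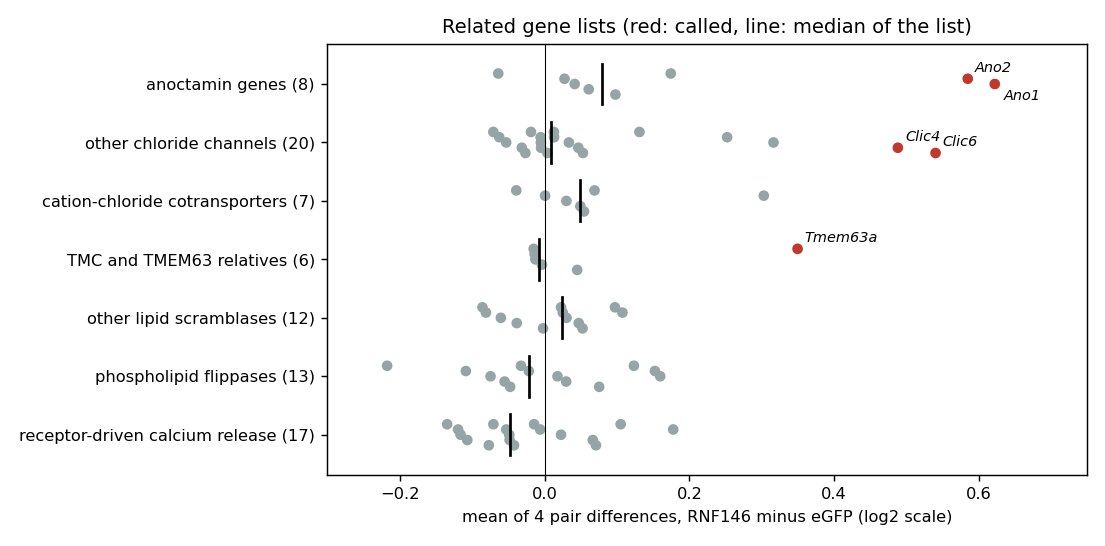
Mean of the 4 pair differences (RNF146 minus eGFP, log2 scale) of the 8 anoctamin genes and of the genes of 6 related lists, with the number of genes in parentheses, red for called genes and a black line for the median of the list. The called genes outside the family are *Clic6*, *Clic4* and *Tmem63a*, and all list medians lie between -0.05 and 0.08.

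Genes with the most similar pair differences were sought in the whole table by Euclidean distance over the 4 differences. Genes near to *Ano1* included *Baiap3*, *Fibcd1*, *Trpc4* and *Arhgap6*, at distances of 0.24 to 0.33. *Baiap3*, whose protein is related to the Munc13 family of vesicle priming factors, had differences of 0.80, 0.87, 0.37 and 0.83. The 5 nearest to *Ano2* were *Igsf1*, *Zcchc12*, *Zic2*, *Magel2* and *Sox1ot*, at distances of 0.07 to 0.23. *Igsf1*, which encodes an immunoglobulin superfamily protein, had differences of 0.84, 0.62, 0.29 and 0.62. *Ano2* was 12th in nearness to *Ano1*, and *Ano1* was 15th in nearness to *Ano2*, at a distance of 0.37. All of these values share the same 4 pairs of libraries, and they describe a likeness over 4 points.

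Markers of some other regions and cell types differed between the groups. The 10 genes of septum and basal forebrain had a mean difference of 0.45, 0.58, 0.29 and 0.47 in the 4 pairs, which was lowest in pair 3, as it was for *Ano1* and *Ano2*. The thalamic list, with 0.22, 0.18, 0.05 and 0.15, and the olfactory bulb list, with 0.11, 0.12, -0.21 and 0.02, were also lowest in pair 3. Single genes weighed heavily in both. *Prkcd* had 0.75 ± 0.17 (SD, n = 4 pairs), against 0.12 for the next largest thalamic mean, and 2 of the 7 thalamic genes were lower in all 4 pairs. *Cdhr1*, of the olfactory bulb list, had -0.86 in pair 3. Of the 10, 8 were called, all higher, and *Zic1*, the most abundant of them, had 0.99 ± 0.37 (SD, n = 4 pairs). *Zic2* and *Trpc4*, named above, are on this list. The mean level of the list ran from 9.17 to 9.31 in the eGFP libraries and from 9.61 to 9.75 in the RNF146 libraries. The cholinergic markers *Chat*, *Slc18a3* and *Lhx8* and the marker *Gbx1* had no value in the analysed table. *Slc5a7*, the choline transporter of cholinergic neurons, was in the table and was called higher, with 0.21, 0.83, 0.37 and 0.62 in the 4 pairs. The part of these cells in the differences of *Ano1* and *Ano2* was not tested.

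The 13 striatal genes had mean differences of -0.05, 1.13, 0.66 and 0.28, and the 12 oligodendrocyte genes had -0.12, 0.44, 0.89 and 0.53. Both were lowest in pair 1 and higher in pairs 2 and 3, as were the differences of *Ano3*. The likeness did not extend to pair 4, where the lists had 0.28 and 0.53 and *Ano3* had -0.01. The mean level of the striatal list ran from 9.67 to 10.26 in the eGFP libraries and from 10.21 to 10.80 in the RNF146 libraries, and that of the oligodendrocyte list from 11.39 to 11.89 and from 11.77 to 12.27. With limma, 1 of the 13 striatal genes was called and 11 had an unadjusted p under 0.05. Of the 12 oligodendrocyte genes, 0 were called and 12 had an unadjusted p under 0.05. Over all genes, 1.25% were called and 12.4% had such a p. Only 5 striatal genes and 1 oligodendrocyte gene were higher in all 4 pairs, against 10.4% of all genes. The p-values rest on limma's moderated error. *Ppp1r1b*, the most abundant striatal marker, had 0.55 ± 0.73 (SD, n = 4 pairs) and *Mbp*, the most abundant oligodendrocyte marker, had 0.51 ± 0.58. Their part in the spread of *Ano3* was not tested.

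*Ano1* is known from smooth muscle and pericytes. The 13 mural and smooth muscle genes had mean differences of 0.02, 0.09, 0.04 and -0.02, averaging 0.03 ± 0.05 (SD, n = 4 pairs). With limma, 0 of them were called and 0 had an unadjusted p under 0.05, against 1.25% and 12.4% of all genes. The mean level of this list ran from 9.36 to 9.42 in the eGFP libraries and from 9.40 to 9.45 in the RNF146 libraries. The 7 thalamic genes had a mean of 0.15 ± 0.07, the 5 ependymal genes 0.19 ± 0.05, the 13 inhibitory neuron genes 0.17 ± 0.05 and the 6 olfactory bulb genes 0.01 ± 0.15. The 13 cortical excitatory genes had a mean of -0.11 ± 0.09, the 12 microglial genes -0.18 ± 0.07, the 10 astrocyte genes -0.02 ± 0.05 and the 10 endothelial genes -0.02 ± 0.06. The inhibitory list was split, with *Gad1*, *Gad2*, *Slc32a1*, *Dlx1* and *Dlx6* called higher and the means of *Vip* (-0.23), *Npy* (-0.16), *Lamp5* (-0.13), *Sst* (-0.06) and *Pvalb* (-0.03) below 0 and not called. The calls were 5 higher among inhibitory genes, 1 higher each among thalamic and ependymal genes, and 2 lower each among excitatory and microglial genes. Over all genes, 0.818% were called higher and 0.432% lower. An unadjusted p under 0.05 with limma was reached by 9 septal, 9 inhibitory, 8 excitatory, 7 microglial and 4 ependymal genes. The thalamic and olfactory bulb lists had 1 each and the astrocyte and endothelial lists 0, against 12.4% of all genes.

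**Figure D5:**
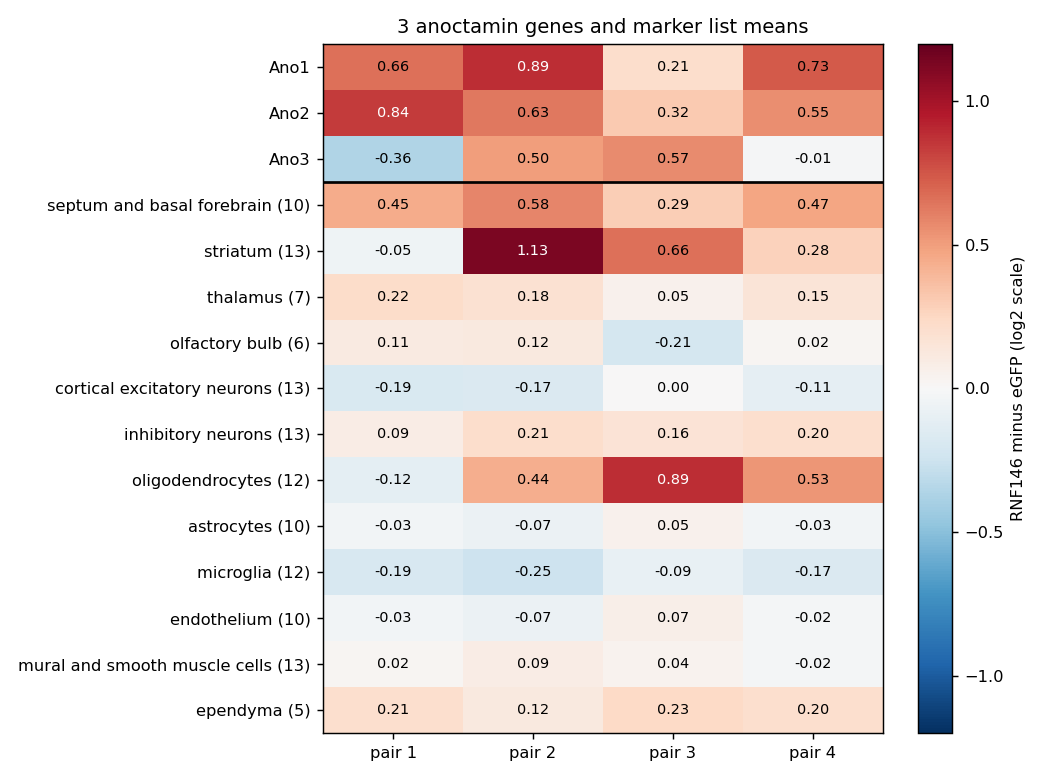
RNF146 minus eGFP value (log2 scale) in pairs 1 to 4 for *Ano1*, *Ano2* and *Ano3*, above the line, and for the mean of each marker list, below it, with the number of genes in parentheses. The septal list is above 0 in all pairs and lowest in pair 3, as is the thalamic list, whereas the striatal and oligodendrocyte lists are below 0 in pair 1.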

How the data were processed

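RNA from the PFC of 4 RNF146 and 4 eGFP mice was analysed, grouped by the sample titles. The authors used Cutadapt for trimming and Salmon 1.9.0 for transcript quantification against GENCODE vM30 (GRCm39), and DESeq2 is named in the submitters' processing notes. The deposited values are called normalized counts but are log2 values from 7.86 to 18.8, which the authors had centred within same-numbered pairs: pair sums of a gene varied by at most 1.4e-13. The transformation and the centring are not given in the sources used here, and depth is unknown. The replicate number was a block because of this centring, which fixes the correlation of paired deviations at -1 and leaves 3 residual degrees of freedom. No sources state whether same-numbered mice shared anything else. The p-values rest on the spread between these pairs, with the variance of each gene moderated by limma toward that of genes of similar mean value.

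limma 3.58.1 in R 4.3.3 (lmFit, eBayes with trend) was fitted to all 15039 genes with Benjamini-Hochberg adjustment. In 5 simulations, each gene kept the SD of its pair differences, and 200 of the 15039 genes were shifted by 0.5. The fit called on average 182.0 shifted and 18.6 other genes with the block, and 199.4 and 1038.8 without it. Pair differences were drawn independently for each gene, whereas genes of some marker lists moved together by pair in the data. The rate of false calls in the data was therefore not measured by these simulations. Positions, lengths and coding sequences came from GENCODE vM39 (GRCm39), and identities from coding sequences translated with biopython 1.88 (the shared window from a MAFFT alignment), since no protein table was used. Genes named are the 8 members, *Rnf146*, the called genes and the 2 largest differences of each related list, the 5 nearest genes of *Ano1* and of *Ano2* (1 is not reported here), and the most abundant gene of marker lists; *Dda1*, singled out by its overlap with *Ano8*, and *Slc5a7* and the inhibitory genes, named after their values were seen, fall outside this rule. The members and lists were chosen with earlier results of these data known. Alternatives were no block, a filter on low values, median centring, quantile normalization, untrended and robust variances, array weights, an adjusted p of 0.05, each pair left out and another transcript length.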

Additional observations from a re-analysis of the deposited data

How the results depend on the processing

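Differences of the 8 members were examined under 12 alternatives, 95 values in all since *Ano5* fell under the filter on low values. Dropping the block, the filter on low values, untrended or robust variances and the changed threshold cannot alter a mean difference. Reversal was possible only under the other alternatives, and none occurred. Of the 95 values, 90 stayed on their side of the threshold, 4 lost the call and 1 gained it. *Ano1* and *Ano2* were called by limma under all but those without pair 2 or pair 4, and *Ano4* was called without the replicate block (adjusted p = 0.049). Without the block, 3 members and 3226 genes were called, against 2 and 188 with it; the 188 were 123 higher and 65 lower, the 3226 were 1655 and 1571. Array weights gave 355 genes and an adjusted p of 0.05 gave 80. Leaving out single pairs, the table had between 14 genes called, without pair 4, and 421, without pair 1, and the members between 0 and 2. Where 0 members were called with limma, *Ano1* and *Ano2* still had an unadjusted p under 0.05. The related genes called numbered 3 with the block, 19 without it, 6 with array weights, 6 without pair 1 and 1 without pair 4. With median transcript lengths, the per-length percentile was 9.06 for *Ano1* and 13.2 for *Ano2*. The causes of these shifts were not tested. How the deposited scale treats changes of weakly expressed genes such as *Ano1*, *Ano2* and *Ano5* was not tested, and with no depth given no counting error could be attached to any value.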

Other observations

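The 250 bases before the annotated start of each member's canonical transcript (GRCm39) were searched for CTTTGA, the core of the motif bound by TCF/LEF factors, and its reverse complement. The letters were present for 2 of the 8 members, *Ano3* and *Ano8*, and for 12.1% of the 14589 genes with such a window. The window of *Ano1* lies inside the annotated span of its gene, as do those of *Ano4* and *Ano10* and part of that of *Ano5*. These windows are therefore not upstream of the outermost annotated start. The windows of *Ano1* and *Ano2* held no match, which says only that these letters are not in these windows. They held 12 and 4 CG dinucleotides, against a median of 12 over all genes.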
